A study of Mus musculus with 12 samples.

Results

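Skeletal muscle breaks down its own proteins during wasting through ubiquitin ligases, many of them switched on by FoxO transcription factors, and 8 genes of this system were followed in mice that express the human DUX4 gene in muscle fibers. The genes were chosen by name: the ligase genes Fbxo32, Trim63, Trim54, Trim55 and Fbxo30, and the FoxO genes Foxo1, Foxo3 and Foxo4. They are 8 of the 37748 genes in the table, and all 8 were among the 16679 genes with enough counts to be tested. Poly(A) RNA of the gastrocnemius muscle was sequenced as single 50 nt reads in 12 mice, 3 in each of 4 groups, as models of facioscapulohumeral muscular dystrophy (FSHD). The control mice, 1127, 1246 and 1349, carried the ACTA1-MCM/+ transgene, in which the promoter of the skeletal muscle actin gene drives a tamoxifen-activated Cre recombinase (MerCreMer) in skeletal muscle fibers, and received no tamoxifen. The FLExD/+ mice, 1358, 1367 and 1378, carried the DUX4 transgene in its unrecombined form and no Cre, and also received no tamoxifen. The moderate mice, 1236, 1308 and 1331, carried both ACTA1-MCM and FLExD and had 1 intraperitoneal injection of tamoxifen at 5 mg/kg. The severe mice, 1047, 1066 and 1079, also carried both and had 2 injections at 10 mg/kg on consecutive days. The mice were 13 weeks old, and the moderate and severe muscles were taken 9 days after the first injection.

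Tamoxifen, recombination and the presence of both transgenes came together in the moderate and severe mice, so their effects cannot be told apart. The labels describe the FLExD/+ animals as having mild pathology, and their treatment text calls the 5 mg/kg dose mild where the sample names call it moderate. The sex of these mice is not given. As a check of the labels, Wfdc3, a mouse gene that DUX4 induces, had 3 to 8 counts in the control mice and 1 to 8 in the FLExD/+ mice. It had 2005 to 2910 counts in the moderate mice and 2776 to 4790 in the severe mice. Esr1, whose sequence is partly contained in the MerCreMer transgene, had 8762 to 17274 counts in the control mice, 3041 to 3786 in the moderate mice and 1475 to 1586 in the severe mice, against 554 to 786 in the FLExD/+ mice, which lack it.

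In muscle wasting, E3 ubiquitin ligases select the proteins that the proteasome degrades, and FoxO factors raise the transcription of several of these ligases when insulin and IGF signaling through AKT is low. AKT phosphorylates FoxO proteins and keeps them out of the nucleus, so FoxO activity is set largely by changes to the protein that RNA levels do not show. Atrogin-1 and MuRF1, encoded by Fbxo32 and Trim63, are the ligases most used as markers of atrophy after fasting, denervation, disuse and glucocorticoid treatment.

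The libraries held 23796902 to 29136403 counts each, and 3 counts, the floor used for detection, corresponded to 0.0676 to 0.155 CPM, the count scaled to a common library total. Such floors cover counting error only. Every member was far above the floor in every mouse: the lowest count of any member was 180, for Foxo1 in an FLExD/+ mouse. The libraries differed in how their counts were spread over genes. The 20 genes most abundant in the controls took 58.1% ± 0.393 (SD, n = 3) of the counts in the control mice and 57.8% ± 0.952 in the FLExD/+ mice. They took 48.5% ± 1.04 in the moderate mice and 32.2% ± 1.50 in the severe mice. The trimmed mean of M values (TMM), a scaling that sets the bulk of genes level between libraries, gave mean factors of 0.716, 0.725, 1.09 and 1.77 in the same order. Unless another scale is named, CPM values and log2 fold changes below use TMM. Scaling by library size only moved the median change over the whole tested table to log2 values of 0.65 for moderate against control, 1.39 for severe against control and 0.72 for severe against moderate, while with TMM these medians were 0.04, 0.08 and 0.02. Directions of members with small changes therefore turned with the scaling, and each such case is named.

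Calls rested on the edgeR quasi-likelihood test: an adjusted p (Benjamini-Hochberg over all tested genes) under 0.05 together with a log2 fold change of at least 0.5 in size. The comparison of FLExD/+ with control mice set mice with the unrecombined DUX4 transgene and no Cre beside mice with the Cre transgene and no DUX4 transgene, so the effects of the transgenes cannot be told apart. With edgeR, 0 of the 8 members were called higher, against 0% of all genes, and 0 were called lower, against 0.00600% of all genes. At an unadjusted p under 0.05 the edgeR counts were 0 higher and 1 lower, and DESeq2, limma on TPM and edgeR with library size only each called 0 of the 8. No share of all genes is given for that unadjusted threshold, here or below, so such counts are not a result about the members. The single member under that unadjusted threshold was Foxo3, with 33.3, 34.5 and 30.2 CPM in the control mice and 26.9, 25.5 and 27.1 CPM in the FLExD/+ mice. Every FLExD/+ value lay under every control value with TMM, but not in TPM, where mouse 1378 had 5.31 and control mouse 1127 had 5.23. The log2 fold change was -0.30 (SE 0.10), and its edgeR quasi-likelihood p of 0.0108 became 1 after Benjamini-Hochberg adjustment. Trim55 was also lower in each FLExD/+ mouse than in each control mouse with TMM, by a log2 fold change of only -0.08 (SE 0.08), and the groups overlapped with library size only and in TPM. The other 6 members overlapped between these groups with TMM. How many of all genes lie apart between these groups is not given, so the separation of Foxo3 and Trim55 is not a result about the members.

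The moderate and severe models, given less and more tamoxifen, were each compared with the control mice. The amount of DUX4 was not measured here. In the moderate mice, 0 of 8 members were called higher, against 24.4% of all genes, and 3 of 8 were called lower, against 17.0%. In the severe mice, 0 of 8 were called higher, against 32.9% of all genes, and 6 of 8 were called lower, against 27.9%. Severe against moderate asks which levels differ between the tamoxifen regimens: 0 of 8 were called higher, against 17.6% of all genes, and 4 of 8 lower, against 18.8%. The zeros are edgeR counts with TMM. At an unadjusted p under 0.05 they became 0 for moderate, 1 for severe (Fbxo30) and 0 for severe against moderate, and DESeq2 gave 0 in all 3 comparisons. Other scalings did not keep them at 0: limma on log2(TPM + 1) called 1, 3 and 3 members higher, and edgeR with library size only called 3, 4 and 3 higher. The members called lower in the same comparisons were 4, 6 and 4 with DESeq2, 2, 3 and 3 with limma on log2(TPM + 1), and 2, 2 and 3 with library size only. DESeq2 called 23.3%, 31.4% and 16.6% of all genes higher and 17.8%, 28.4% and 19.0% lower. Of all genes, limma called 31.5%, 64.1% and 48.2% higher and 4.42%, 5.92% and 3.77% lower, and library size only called 52.5%, 75.4% and 57.8% higher and 4.51%, 6.42% and 4.93% lower. The members called higher under these 2 settings were thus a smaller share than all genes in each comparison, and those called lower a larger share. The median log2 fold change of the 8 members was -0.54, -1.23 and -0.43 in the 3 comparisons, beside the all-gene medians given above.

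The scaling moved the whole table in the same way. TMM gave 4072 higher and 2830 lower calls for moderate against control, 5480 higher and 4648 lower for severe against control, and 2943 higher and 3139 lower for severe against moderate. Library size only gave 8764 and 752, 12580 and 1070, and 9648 and 823. Once the median shift of all genes was subtracted, the library-size changes of the members had the TMM direction in the 3 comparisons, apart from Foxo1 in the moderate mice (-0.03) and Foxo3 in the moderate (-0.03) and severe mice (-0.05), whose TMM changes were 0.01, 0.01 and 0.03. Within a comparison the scalings differ by a nearly constant amount, so this match largely follows from the subtraction and is not separate support.

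**Figure D1:**
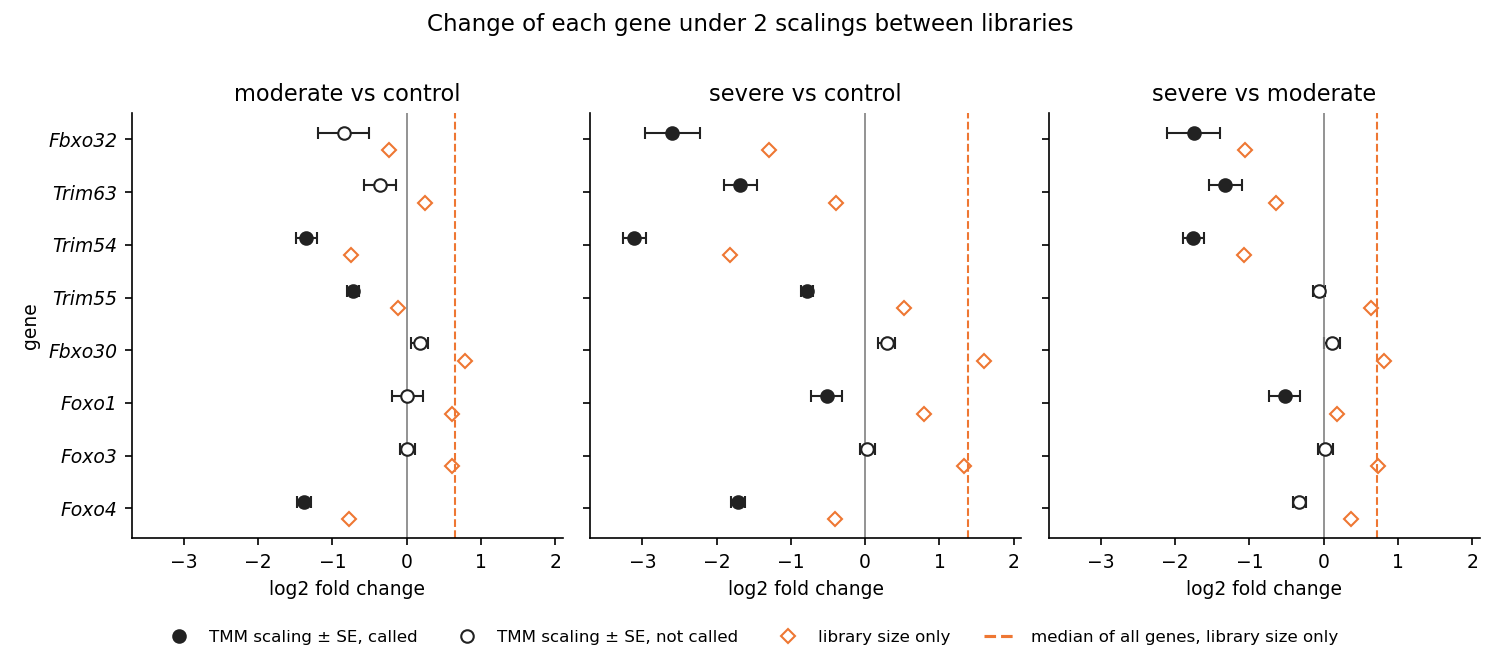
Log2 fold changes of the 8 members (edgeR, n = 3 mice per group) in 3 comparisons, as circles with TMM scaling and its SE, filled where called, and as diamonds with library size only, whose all-gene median is the dashed line. Against control, Trim54 (-3.11) and Fbxo32 (-2.59) lie lowest in the severe mice and keep their side of 0 with library size only, while Trim55 and Foxo1 turn to 0.52 and 0.79.

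Fbxo32 (ENSMUSG00000022358, GRCm38 chromosome 15, 58175879 to 58214932, minus strand) encodes atrogin-1, the substrate-binding F-box subunit of an SCF ubiquitin ligase. Its level was 126, 58.7 and 64.8 CPM in control mice 1127, 1246 and 1349 and 140, 87.0 and 71.4 CPM in FLExD/+ mice 1358, 1367 and 1378. It was 45.7, 38.6 and 54.1 CPM in moderate mice 1236, 1308 and 1331 and 10.1, 13.7 and 17.4 CPM in severe mice 1047, 1066 and 1079. Every severe mouse was below every moderate mouse and every moderate mouse below every control mouse, and the untreated groups each held 1 mouse well above its companions. The severe change from control was -2.59 on the log2 scale (SE 0.37, edgeR quasi-likelihood test, Benjamini-Hochberg adjusted p = 0.000102). The moderate change was -0.85 (SE 0.35, edgeR adjusted p = 0.0622) and was not called. That call turned on single libraries and on the tool: it was made without control mouse 1246 (-1.08, edgeR adjusted p = 0.0343), without control mouse 1349 (-1.03, edgeR adjusted p = 0.0495) and with DESeq2 (-0.87, adjusted p = 0.0469), within a range of adjusted p from 0.0343 to 0.522 over all 17 alternatives. Severe against moderate gave -1.75 (SE 0.36, edgeR adjusted p = 0.00252). With library size only the severe change was -1.30 and severe against moderate -1.06, both still called lower. The moderate change was then -0.24 and not called. An antisense gene, Gm15943, shares 186 exon bases with Fbxo32 and had 7.79 to 116 counts, and since the labels state no stranded kit, reads in the shared bases cannot be assigned by strand.

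Trim63 (ENSMUSG00000028834, chromosome 4, 134315120 to 134329629, plus strand) encodes MuRF1, a RING-finger ligase of the sarcomere that ubiquitinates thick-filament proteins. It stood at 179, 139 and 180 CPM in the control mice and at 166, 173 and 149 CPM in the FLExD/+ mice. The moderate mice had 127, 99.2 and 163 CPM and the severe mice 34.5, 58.7 and 62.5 CPM. The moderate mice overlapped the controls through mouse 1331, whereas all 3 severe mice lay under every other mouse. The severe change was -1.68 (SE 0.22, edgeR adjusted p = 1.86e-05), and with library size only it kept its direction at -0.39 but was no longer called (edgeR adjusted p = 0.0757, the highest of its 17 alternatives, the lowest being 1.00e-13 with DESeq2). The moderate change was -0.35 (SE 0.22, edgeR adjusted p = 0.188) and turned to 0.25 with library size only. Without moderate mouse 1331 it was called, at -0.58 (edgeR adjusted p = 0.0452, the lowest of its 17 alternatives), and the highest, 0.655, came from limma on log2(TPM + 1), where the change turned to 0.11. Severe against moderate was -1.32 (SE 0.22, edgeR adjusted p = 0.000324).

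Trim54 (ENSMUSG00000062077, chromosome 5, 31116712 to 31137630, plus strand) encodes MuRF3, a relative of MuRF1 that binds microtubules and the sarcomere. The control mice had 192, 174 and 188 CPM and the FLExD/+ mice 189, 168 and 185 CPM. The moderate mice had 68.9, 74.3 and 73.4 CPM and the severe mice 15.4, 23.4 and 25.5 CPM. The untreated groups were tight and alike, the moderate mice lay apart from them, and the severe mice lay apart from both. The severe change was -3.11 (SE 0.15, edgeR adjusted p = 5.24e-10) and the moderate change -1.35 (SE 0.14, edgeR adjusted p = 2.6e-06). Severe against moderate was -1.75 (SE 0.15, edgeR adjusted p = 1.77e-06). With library size only the 3 changes were -1.81, -0.75 and -1.07, and Trim54 was called lower in each comparison under all 17 alternatives. The antisense gene Gm15469 shares 382 exon bases with Trim54 and is not in the count table.

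Trim63 and Trim54 were lower in the severe mice under all 17 alternatives, and the promoters in hand for them are shown. RefSeq promoters, 250 bases before to 50 bases after the annotated start on GRCm38.p6, were matched for 5 of the 8 members and not for Fbxo32, Trim55 and Foxo4. The Trim63 promoter is chr4:134314870-134315169 and the Trim54 promoter chr5:31116362-31116661, both on the plus strand. In the sequences below, capitals mark a FoxO site (GTAAACA, found here on the opposite strand as its reverse complement) and E-boxes (CAGCTG), searched on both strands.
Trim63: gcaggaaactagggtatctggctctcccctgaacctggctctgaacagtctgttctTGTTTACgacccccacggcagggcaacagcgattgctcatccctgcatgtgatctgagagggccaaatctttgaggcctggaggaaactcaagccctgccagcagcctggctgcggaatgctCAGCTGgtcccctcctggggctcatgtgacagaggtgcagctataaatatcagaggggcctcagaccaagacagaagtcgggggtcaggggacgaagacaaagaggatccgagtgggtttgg
Trim54: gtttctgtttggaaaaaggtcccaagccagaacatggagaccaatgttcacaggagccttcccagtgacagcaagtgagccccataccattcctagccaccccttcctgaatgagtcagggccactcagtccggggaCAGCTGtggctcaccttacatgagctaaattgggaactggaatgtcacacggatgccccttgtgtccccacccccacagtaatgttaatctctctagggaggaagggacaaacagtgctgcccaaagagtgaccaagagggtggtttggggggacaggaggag
The FoxO site of Trim63 starts 194 bases before the RefSeq start and its E-box 72 bases before it, and the E-box of Trim54 starts 113 bases before the start. Of 32851 mouse promoters of the same length, 3.65% hold GTAAACA and 16.3% hold CAGCTG. An insulin response element (CAAAACA, in 6.28% of promoters), a MEF2 motif (3.19%) and a DUX4 motif (0.161%) were not in either window. The promoters of Fbxo30, Foxo1 and Foxo3, with 79.7%, 61.3% and 75% G and C against 57% for Trim63 and 54% for Trim54, held none of the 5 motifs. A match is a run of letters in a window, and no binding was measured.

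**Figure D2:**
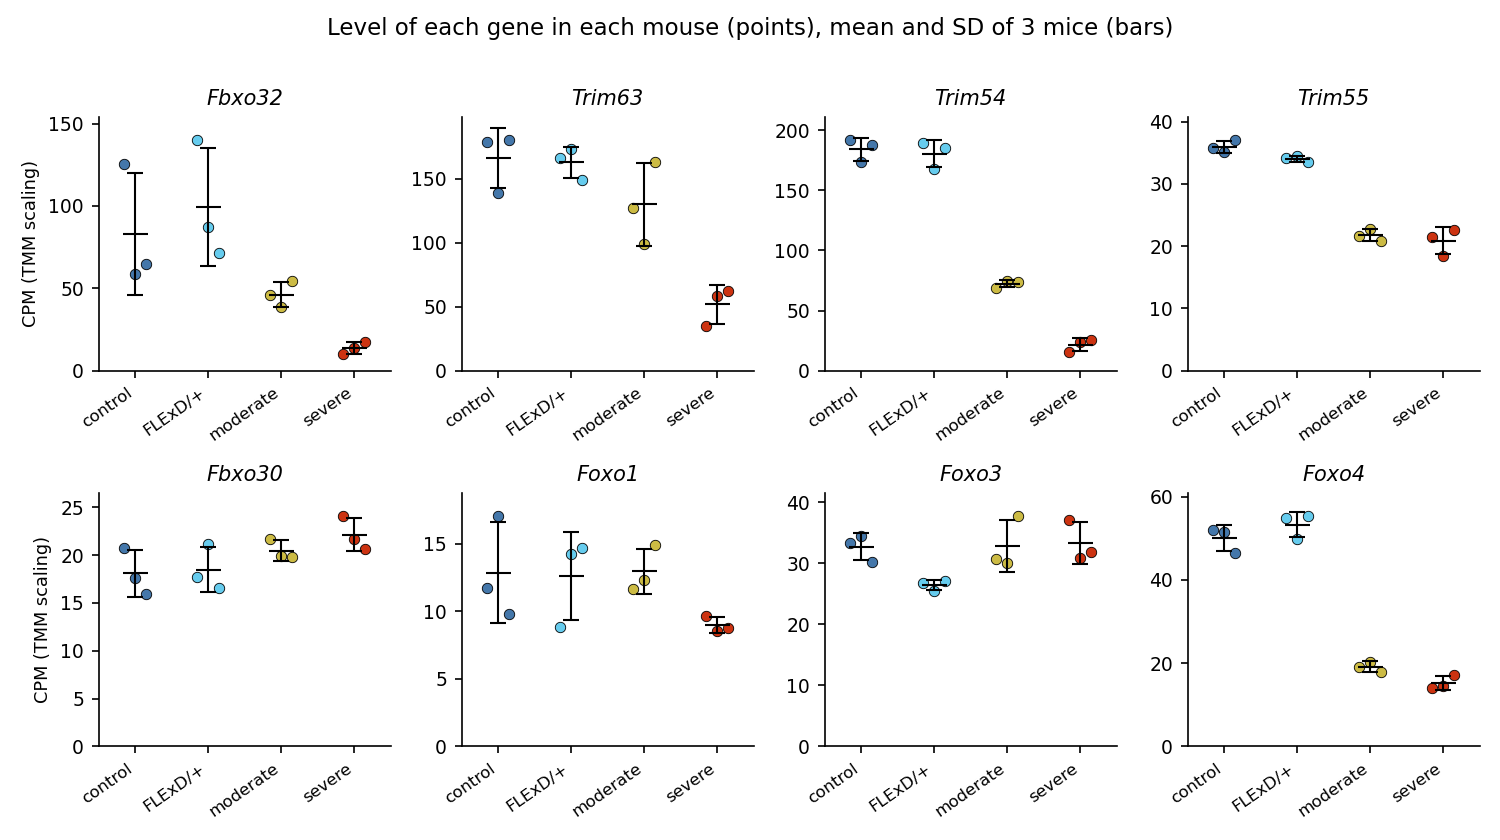
Level of each member in each of the 12 mice in TMM-scaled CPM, with the mean and SD of each group of 3. The control and FLExD/+ mice overlap for 6 of 8 members, and the severe mice lie below every control mouse for Fbxo32, Trim63, Trim54, Trim55, Foxo1 and Foxo4, of which Trim55 and Foxo1 turn higher with library size only. No share of all genes that lie apart in this way is given, so these counts are not a result about the members.

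Trim55 (ENSMUSG00000060913, chromosome 3, 19644474 to 19692421, plus strand) encodes MuRF2, the third MuRF protein, which associates with titin and microtubules. It was at 35.8, 35.1 and 37.0 CPM in the control mice and at 34.2, 34.5 and 33.5 CPM in the FLExD/+ mice, each of which had 695 counts. It was at 21.6, 22.8 and 20.9 CPM in the moderate mice and at 21.4, 18.4 and 22.7 CPM in the severe mice. Trim55 was thus the even member of the MuRF family: the moderate and severe mice overlapped each other and both lay below all controls. The moderate change was -0.73 (SE 0.08, edgeR adjusted p = 5.65e-06) and the severe change -0.79 (SE 0.08, edgeR adjusted p = 9.13e-07), and severe against moderate was -0.06 (SE 0.08, edgeR adjusted p = 0.558). With library size only the moderate change was -0.12 and not called, while the severe change turned to 0.52 and severe against moderate to 0.64, both called higher.

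Fbxo30 (ENSMUSG00000047648, chromosome 10, 11281330 to 11298052, plus strand) encodes MUSA1, an F-box protein known for its induction in denervated muscle when BMP signaling is blocked. The control mice had 20.8, 17.6 and 16.0 CPM and the FLExD/+ mice 17.8, 21.1 and 16.6 CPM. The moderate mice had 21.7, 19.9 and 19.8 CPM and the severe mice 24.1, 21.7 and 20.7 CPM. All 4 groups overlapped, with control mouse 1127 inside the range of the severe mice. Its severe change, 0.29 (SE 0.11, edgeR adjusted p = 0.0315), was under the fold threshold, and its moderate change was 0.18 (SE 0.11, edgeR adjusted p = 0.205). Scaled by library size only, where most genes rose, Fbxo30 was called higher in the moderate mice at 0.79, in the severe mice at 1.60 and in severe against moderate at 0.81.

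Among the 3 FoxO members, Foxo4 (ENSMUSG00000042903, chromosome X, 101254528 to 101260873, plus strand) changed most with TMM scaling. Its level was 52.0, 51.6 and 46.5 CPM in the control mice and 54.8, 49.8 and 55.3 CPM in the FLExD/+ mice. It was 19.2, 20.4 and 17.9 CPM in the moderate mice and 14.1, 14.6 and 17.1 CPM in the severe mice. The moderate mice were already far below both untreated groups, and the severe mice lay just below them without overlap. The moderate change was -1.39 (SE 0.09, edgeR adjusted p = 3.92e-08) and the severe change -1.71 (SE 0.09, edgeR adjusted p = 1.28e-09). Library size only gave -0.78, still called, and -0.41, under the fold threshold. Severe against moderate was -0.33 (SE 0.09, edgeR adjusted p = 0.00906), under the fold threshold, and turned to 0.37 with library size only.

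Foxo1 (ENSMUSG00000044167, chromosome 3, 52268336 to 52353221, plus strand), a main FoxO activator of atrophy genes, was the least abundant member. The control mice had 11.8, 17.1 and 9.81 CPM and the FLExD/+ mice 8.86, 14.3 and 14.7 CPM. The moderate mice had 11.7, 12.3 and 14.9 CPM and the severe mice 9.69, 8.54 and 8.74 CPM. Untreated and moderate mice were spread over one range, and the severe mice sat at its lower end, just under the lowest control mouse. The severe change was -0.52 (SE 0.21, edgeR adjusted p = 0.0386), barely past the fold threshold, and turned to 0.79 with library size only. Severe against moderate was -0.53 (SE 0.20, edgeR adjusted p = 0.0459) and turned to 0.18 with library size only. Moderate against control was 0.01 (SE 0.21, edgeR adjusted p = 0.976) and was called higher with library size only, at 0.61 (edgeR adjusted p = 0.0213).

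The Foxo1 calls rested on single libraries and on the filter. The severe change fell to -0.28 without control mouse 1246, and it was not called without that mouse or without severe mouse 1047 (-0.57), 1066 (-0.48) or 1079 (-0.50), where the edgeR adjusted p went up to 0.217. That was the highest of its 17 alternatives, and the lowest, 0.00350, came with library size only, where the change was reversed at 0.79. Severe against moderate lost its call without moderate mouse 1236 (-0.60), 1308 (-0.57) or 1331 (-0.40) and without severe mouse 1047 (-0.58), 1066 (-0.49) or 1079 (-0.51), where the edgeR adjusted p went up to 0.177. Over its 17 alternatives the adjusted p ran from 0.00622, in edgeR on only the 2 groups compared, to 0.456 with library size only, where the change was reversed at 0.18. With no filter on low counts, and with at least 10 counts required in every mouse, the severe change was -0.42 and -0.40 and severe against moderate -0.48 and -0.47, with none of the 4 called. An antisense gene, Gm20402, shares 674 exon bases with Foxo1 and had 2.95 to 9.92 counts.

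Foxo3 (ENSMUSG00000048756, chromosome 10, 42181841 to 42276755, minus strand), the FoxO factor most tied to autophagy and ligase genes in muscle, had 30.7, 30.1 and 37.8 CPM in the moderate mice and 37.2, 30.9 and 31.9 CPM in the severe mice, beside the control and FLExD/+ values above. The moderate and severe mice overlapped the controls. Its change was 0.01 (SE 0.10, edgeR adjusted p = 0.961) in the moderate mice and 0.03 (SE 0.10, edgeR adjusted p = 0.819) in the severe mice. Foxo3 was called higher in both with library size only, at 0.61 and 1.34, close to the shift of the median gene.

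Levels of different genes were compared in TPM, which divides by transcript length. In the control mice the order of mean TPM was Trim54 at 119 ± 7.47 (SD, n = 3), Trim63 at 92.7 ± 14.9, Fbxo32 at 55.0 ± 23.4, Foxo4 at 25.2 ± 0.852, Trim55 at 18.2 ± 1.00, Foxo3 at 5.59 ± 0.418, Fbxo30 at 4.16 ± 0.594 and Foxo1 at 2.47 ± 0.647. Of neighbors in that order, only the ranges of Trim63 and Fbxo32 overlapped. The FLExD/+ mice had the same order, and there only Foxo3 and Fbxo30 overlapped. In the moderate mice Trim63, at 101 ± 20.7 TPM, stood above Trim54, at 65.3 ± 5.35 TPM, and Trim55, at 15.5 ± 1.44 TPM, overlapped Foxo4, at 13.9 ± 1.38 TPM, as Foxo3, at 7.94 ± 0.930 TPM, overlapped Fbxo30, at 7.20 ± 0.333 TPM. In the severe mice the order was Trim63 at 66.1 ± 17.7 TPM, Trim54 at 31.9 ± 6.95, Trim55 at 24.3 ± 1.71, Fbxo32 at 20.9 ± 4.21, Foxo4 at 18.6 ± 0.481, Fbxo30 at 12.9 ± 1.62, Foxo3 at 12.6 ± 1.76 and Foxo1 at 3.92 ± 0.539. The ranges of Trim54 and Trim55, Trim55 and Fbxo32, Fbxo32 and Foxo4, and Fbxo30 and Foxo3 overlapped there. Trim63 thus stood first in both DUX4-expressing groups, where Trim54 had led in the untreated groups. Foxo1 was last in every group, and the ligases drew together in between.

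**Figure D3:**
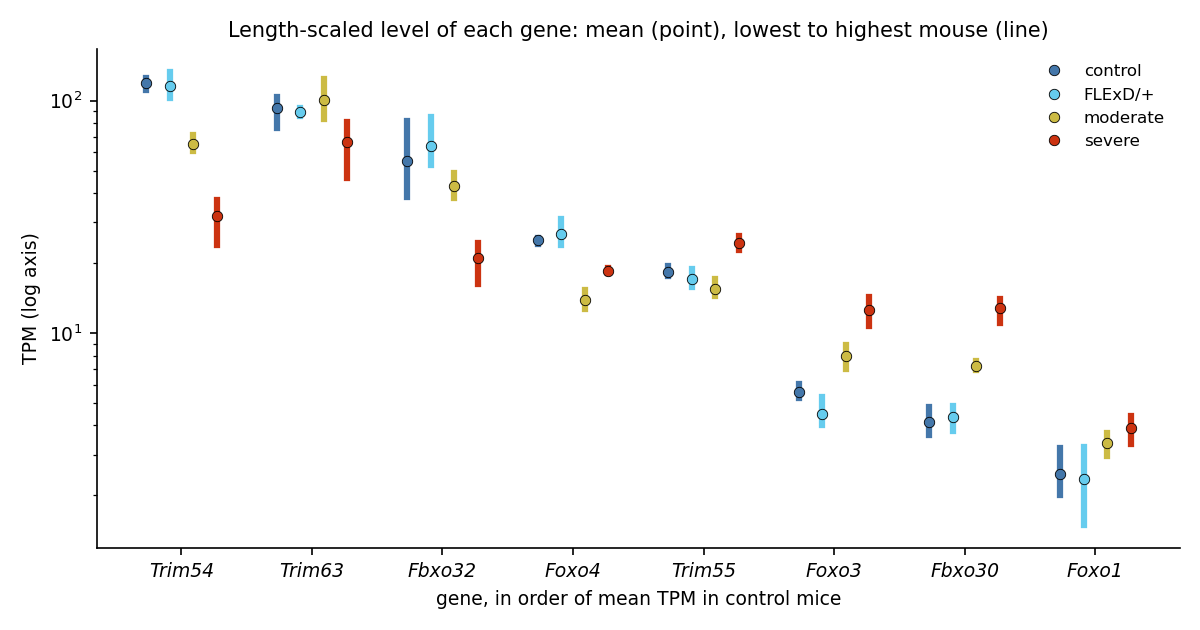
TPM of the 8 members in each group on a log axis, with a point for the mean of 3 mice and a line from the lowest to the highest mouse, in the order of the control means. Trim54 leads at 119 in the control mice and Trim63 leads at 101 in the moderate mice and 66.1 in the severe mice.

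Ratios of TPM between members within a mouse do not depend on the scaling between libraries. Trim63 over Trim54 was 0.775 ± 0.0791 (SD, n = 3) in the control mice, 0.782 ± 0.0893 in the FLExD/+ mice, 1.55 ± 0.373 in the moderate mice and 2.06 ± 0.117 in the severe mice. MuRF1 RNA thus went from below to above MuRF3 RNA, with no overlap between the untreated and the DUX4-expressing groups. Trim63 over Fbxo32 was 1.83 ± 0.577, 1.47 ± 0.404, 2.34 ± 0.167 and 3.14 ± 0.412 in the same order. Fbxo30 over Fbxo32, the ratio of the F-box ligases, was 0.0816 ± 0.0229, 0.0722 ± 0.0240, 0.170 ± 0.0253 and 0.642 ± 0.207. Trim63 over Trim55 went the other way in the severe mice, with 5.07 ± 0.663, 5.27 ± 0.293, 6.61 ± 1.87 and 2.76 ± 0.900, the severe mice below every control mouse. Among the FoxO genes, Foxo3 over Foxo4 was 0.222 ± 0.0165, 0.168 ± 0.00872, 0.578 ± 0.107 and 0.680 ± 0.107, and Foxo3 over Foxo1 was 2.34 ± 0.428, 2.04 ± 0.567, 2.37 ± 0.0252 and 3.22 ± 0.0242.

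Atrogin-1 and the MuRF proteins act in muscle fibers, so the members' counts were set beside those of 8 adult fast-fiber genes, whose summed level fell in the DUX4-expressing mice. These 8 genes, of which Myh4 was the most abundant in each mouse and 0 were absent from any mouse, took 12.9%, 9.89% and 14.0% of the counts in the control mice and 10.4%, 9.06% and 12.7% in the FLExD/+ mice. They took 6.86%, 6.82% and 7.75% in the moderate mice and 1.61%, 2.81% and 2.56% in the severe mice, and 8 of 8 were called lower in both groups. In whole muscle, fewer cells of a type and less RNA per cell cannot be told apart. The part of the fiber genes in the members' falls was not tested.

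Trim63 as a percentage of the geometric mean of the 8 fast-fiber genes was 1.14%, 1.12% and 1.09% in the control mice and 1.21%, 1.45% and 1.02% in the FLExD/+ mice. It was 2.60%, 1.97% and 2.86% in the moderate mice and 4.84%, 4.78% and 5.20% in the severe mice. Since the reference genes fell by more than almost all others, a higher ratio here says only that a gene fell less than they did. On this scale 8 of 8 members lay above every control mouse in each severe mouse, against 97.8% of all tested genes, and 5 of 8 did so in the moderate mice, against 88.5%, so these counts are not a result about the members. The size of the ratio places a member between the fast-fiber genes and the median gene (of those counted in all mice compared), which stood 15.2-fold above control in the severe mice and 2.90-fold in the moderate mice. In the severe mice the members stood at 1.65-fold for Trim54, 2.50-fold for Fbxo32, 4.44-fold for Trim63, 4.44-fold for Foxo4, 8.41-fold for Trim55, 10.4-fold for Foxo1, 14.8-fold for Foxo3 and 17.9-fold for Fbxo30. Trim54 and Fbxo32 were thus the members nearest to the fast-fiber genes in their fall, and Fbxo30 alone lay past the median gene. In the moderate mice Trim54 stood at 1.11-fold and Foxo4 at 1.09-fold, with moderate and control mice overlapping for both.

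**Figure D4:**
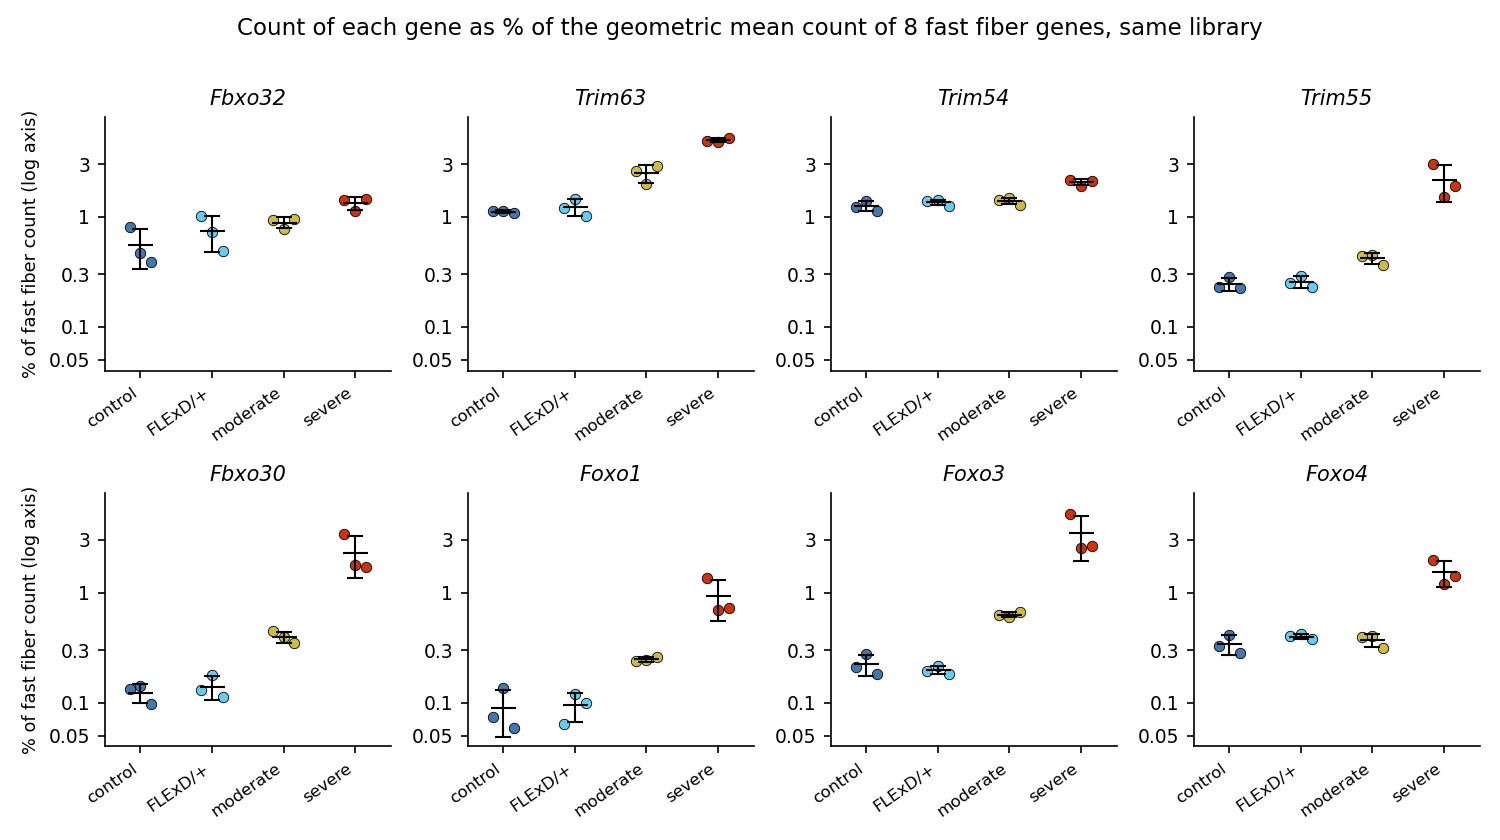
Count of each member as a percentage of the geometric mean of 8 fast-fiber genes in each of the 12 mice, on a log axis, with the mean and SD of each group. The reference genes fell in the DUX4-expressing mice, so 97.8% of all tested genes lie higher in the 3 severe mice than in the 3 control mice on this scale, and the members do so by 1.65-fold (Trim54) to 17.9-fold (Fbxo30), beside 15.2-fold for the median gene.

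Markers of other cells and states moved in the same mice. Regenerating-fiber markers were called higher for 4 of 4 genes in both models, with a summed level of 21.7 to 23.5 CPM in the control mice, 24.4 to 27.4 CPM in the FLExD/+ mice, 325 to 578 CPM in the moderate mice and 1228 to 1756 CPM in the severe mice. Myh3 was the most abundant of them in the DUX4-expressing mice, and Mymk was at 0 in FLExD/+ mouse 1358. Macrophage markers were called higher for 6 of 6 genes in both models, with a summed 39.6 to 51.1 CPM, 38.2 to 44.5 CPM, 198 to 256 CPM and 445 to 514 CPM in the same order of groups, Csf1r being the most abundant and 0 markers at 0. Of 4 fibro-adipogenic markers, 2 were called higher in each model and 1, Dcn, was called lower in the severe mice, where library size only called all 4 higher, and their sum, mostly Col3a1 in the DUX4-expressing mice, was 604 to 1513 CPM, 730 to 868 CPM, 2240 to 2370 CPM and 3773 to 4899 CPM, with 0 markers at 0. Of 4 endothelial markers, 2 were called lower in the moderate and 4 in the severe mice, where library size only called 1 lower and 1 higher, and their sum was 138 to 155 CPM, 125 to 181 CPM, 87.9 to 115 CPM and 60.4 to 71.7 CPM, with Pecam1 the most abundant in the control mice and 0 markers at 0. Of 5 slow-fiber markers, 1 was called lower in the moderate and 2 in the severe mice, where library size only also called 1 higher, and their sum was 325 to 1858 CPM, 458 to 2074 CPM, 179 to 520 CPM and 180 to 313 CPM, with Myh7 the most abundant in all but the severe mice, where Tnni1 was, and 0 markers at 0. The part of these cells in the members' levels was not tested.

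Genes that work with the members were read from lists by function, and their counts stand beside shares of all tested genes of 24.4% called higher and 17.0% lower in the moderate mice and 32.9% higher and 27.9% lower in the severe mice. For counts with library size only the shares of all genes were 52.5% and 4.51% in the moderate mice and 75.4% and 6.42% in the severe mice, and with limma on TPM 31.5% and 4.42%, and 64.1% and 5.92%. Of 14 other muscle ubiquitin ligases, the moderate mice had 2 called higher and 4 lower and the severe mice 1 higher and 8 lower, where library size only called 9 higher and 3 lower. Asb2, a SOCS-box ligase subunit, fell by 3.86 on the log2 scale in the severe mice (SE 0.27, edgeR adjusted p = 5.5e-08). Fbxo40, a muscle F-box protein that targets IRS1, fell by 3.21 (SE 0.26, edgeR adjusted p = 1.93e-07), and Fbxo31 fell by 2.37 (SE 0.12, edgeR adjusted p = 6.4e-10). Cblb alone in that list was called higher, at 0.98 (SE 0.11, edgeR adjusted p = 1.09e-06), and these 4 genes kept their direction with library size only. Of 8 genes of the SCF core and ubiquitin supply, the moderate mice had 0 called higher and 2 lower and the severe mice 0 higher and 4 lower. The edgeR zeros became 1 and 0 at an unadjusted p under 0.05, 0 and 0 with DESeq2, 3 and 6 with limma on TPM, and 3 and 5 with library size only. Skp1a (-1.30) and Rbx1 (-0.92) fell in the severe mice with TMM, and with library size only neither was called and Rbx1 turned to 0.39.

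Genes reported as FoxO targets were called in both directions. Of 21, the moderate mice had 4 called higher and 8 lower, against 24.4% and 17.0% of all genes, and the severe mice 3 higher and 11 lower, against 32.9% and 27.9%, where library size only called 12 higher and 4 lower, against 75.4% and 6.42%. Among them Sesn3, a sestrin, rose by 1.66 on the log2 scale in the severe mice (SE 0.12, edgeR adjusted p = 1.43e-08), Ctsl, a lysosomal protease, by 0.88 (SE 0.11, edgeR adjusted p = 6.59e-06) and Eif4ebp1, a translation repressor, by 0.69 (SE 0.12, edgeR adjusted p = 0.000188). Klf15, a transcription factor also induced by glucocorticoids, fell by 3.74 (SE 0.21, edgeR adjusted p = 4.55e-09). Bnip3, a mitophagy receptor, fell by 2.59 (SE 0.15, edgeR adjusted p = 2.69e-09), and Sod2, the mitochondrial superoxide dismutase, fell by 2.42 (SE 0.15, edgeR adjusted p = 4.96e-09). These 6 genes kept their direction with library size only, and for each of them all 3 severe mice lay on the same side of all 3 control mice. They were named for their large called changes, and no share of all genes that lie apart in this way is given. The separation is therefore not a result about the list. The list had a median of -0.42 for the moderate mice and -0.78 for the severe mice.

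Upstream of FoxO, the insulin and IGF pathway to AKT had 2 of 12 genes called higher and 3 lower in the moderate mice (24.4% and 17.0% of all genes), and 2 higher and 4 lower in the severe mice (32.9% and 27.9%), its lower calls being near the share of all genes, where library size only called 9 higher and 0 lower. Igf1 rose by 1.39 on the log2 scale (SE 0.19, edgeR adjusted p = 2.86e-05) and Akt1 by 1.25 (SE 0.10, edgeR adjusted p = 5.2e-08) in the severe mice. Akt2, the AKT gene of insulin response, fell by 1.32 (SE 0.09, edgeR adjusted p = 9.13e-09), Irs1 fell by 1.74 (SE 0.19, edgeR adjusted p = 2.86e-06) and Sgk1 fell by 1.50 (SE 0.38, edgeR adjusted p = 0.00516). Under library size only Akt2 was at -0.02, Irs1 at -0.43 and Sgk1 at -0.19, none of them called. Akt1 and Akt2 RNA therefore moved apart under both scalings. Of 9 genes, Foxo6 and 8 whose proteins modify, bind or act with FoxO factors, 1 was called higher and 2 lower in the moderate mice and 1 higher and 3 lower in the severe mice, where library size only called 7 higher and 2 lower. The lower calls of this list were near the shares of all genes, 17.0% and 27.9%, so they are not a result about it. With library size only the shares of all genes in the severe mice were 75.4% higher and 6.42% lower. The 14-3-3 gene Ywhaz rose by 1.56 (SE 0.11, edgeR adjusted p = 1.25e-08), Prkaa2, a catalytic AMPK subunit, fell by 2.36 (SE 0.16, edgeR adjusted p = 1.15e-08), Foxo6, itself a FoxO factor, fell by 2.15 (SE 0.29, edgeR adjusted p = 1.31e-05), and the deacetylase gene Sirt2 fell by 0.78 (SE 0.07, edgeR adjusted p = 3.05e-07) but was at 0.52 with library size only.

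Inputs other than AKT were read from 2 lists. Of 8 glucocorticoid response genes, 1 was called higher and 1 lower in the moderate mice, against 24.4% and 17.0% of all genes, and 0 higher and 4 lower in the severe mice, against 32.9% and 27.9%, with edgeR. That zero was 0 at an unadjusted p under 0.05 and 0 with DESeq2, but 5 with limma on TPM, against 64.1% of all genes, and 5 with library size only, against 75.4%. Nr3c1, the glucocorticoid receptor, was at -1.02 in the severe mice (SE 0.09, edgeR adjusted p = 1.78e-07), Zbtb16 at -1.38 (SE 0.37, edgeR adjusted p = 0.00784) and Tsc22d3 at -0.98 (SE 0.30, edgeR adjusted p = 0.0128), and with library size only they stood at 0.29, -0.09 and 0.31, so that Nr3c1 and Tsc22d3 turned. Moderate mouse 1331, the highest of its group for Trim63 and also for Fbxo32, Foxo1 and Foxo3, stood apart for several of these genes. It had 53.7 CPM of Fkbp5, against 20.9 and 13.3 CPM in mice 1236 and 1308. Tsc22d3 was at 106 against 54.2 and 59.1 CPM, and Zbtb16 at 53.5 against 18.6 and 23.0 CPM. Mouse 1331 was not the highest of its group for Per1 or Nr3c1. These values are of 1 mouse, and a link between them was not tested. Of 7 genes of the denervation-type response, 4 were called higher and 2 lower in each model, and library size only called 5 higher and 1 lower in the severe mice. Myog, which activates Fbxo32 and Trim63 in denervated muscle, rose by 4.65 on the log2 scale (SE 0.20, edgeR adjusted p = 4.71e-10) and Runx1 by 4.50 (SE 0.23, edgeR adjusted p = 3.16e-09). Chrng, the fetal acetylcholine receptor subunit, had 0 to 1 counts in the control mice and 1023 to 1568 counts in the severe mice, so no fold change is given. Hdac4 fell by 1.63 with TMM (SE 0.12, edgeR adjusted p = 1.84e-08). That call was not made with library size only, nor with limma on TPM, which called 0 genes of this list lower. Dach2, a repressor of Myog, had 33.5 to 121 counts in the control mice and 1.03 to 6.74 counts in the severe mice, 2 of which lay under the floor, so no fold change is given.

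Partners and substrates of the ligases, 13 genes, had 0 called higher and 7 lower in the moderate mice, and 1 higher and 11 lower in the severe mice, where library size only called 3 higher and 6 lower. The moderate zero was 0 at an unadjusted p under 0.05 and 0 with DESeq2, but 2 with limma on TPM and 2 with library size only. Tcap, a titin cap protein, fell by 5.07 in the severe mice (SE 0.30, edgeR adjusted p = 6.17e-09), Mybpc2, a thick-filament protein, fell by 4.79 (SE 0.30, edgeR adjusted p = 4.36e-09) and Mylpf, a fast myosin light chain, fell by 2.91 (SE 0.20, edgeR adjusted p = 9.78e-09). Myod1, a substrate of atrogin-1, rose by 2.35 (SE 0.23, edgeR adjusted p = 9.18e-07). For the moderate mice, library size only moved the calls from mostly lower to mostly higher in the FoxO targets (6 higher and 3 lower), the insulin and IGF pathway (7 and 0), the FoxO modifiers (3 and 1) and the SCF core (3 and 0). It called 2 and 2 of the other ligases, 4 and 0 of the glucocorticoid genes, 4 and 1 of the denervation-type genes and 2 and 4 of the partners. Across the 8 lists, 0 genes were called in opposite directions in the moderate and severe mice, which share their controls. No share of all genes is given for such calls, so this count is not a result about the lists. With edgeR, 0 genes of these lists were called in the FLExD/+ mice. In those mice DESeq2, limma on TPM and library size only also called 0, and at an unadjusted p under 0.05 1 insulin and IGF gene and 1 ligase partner were lower and 0 genes were higher.

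**Figure D5:**
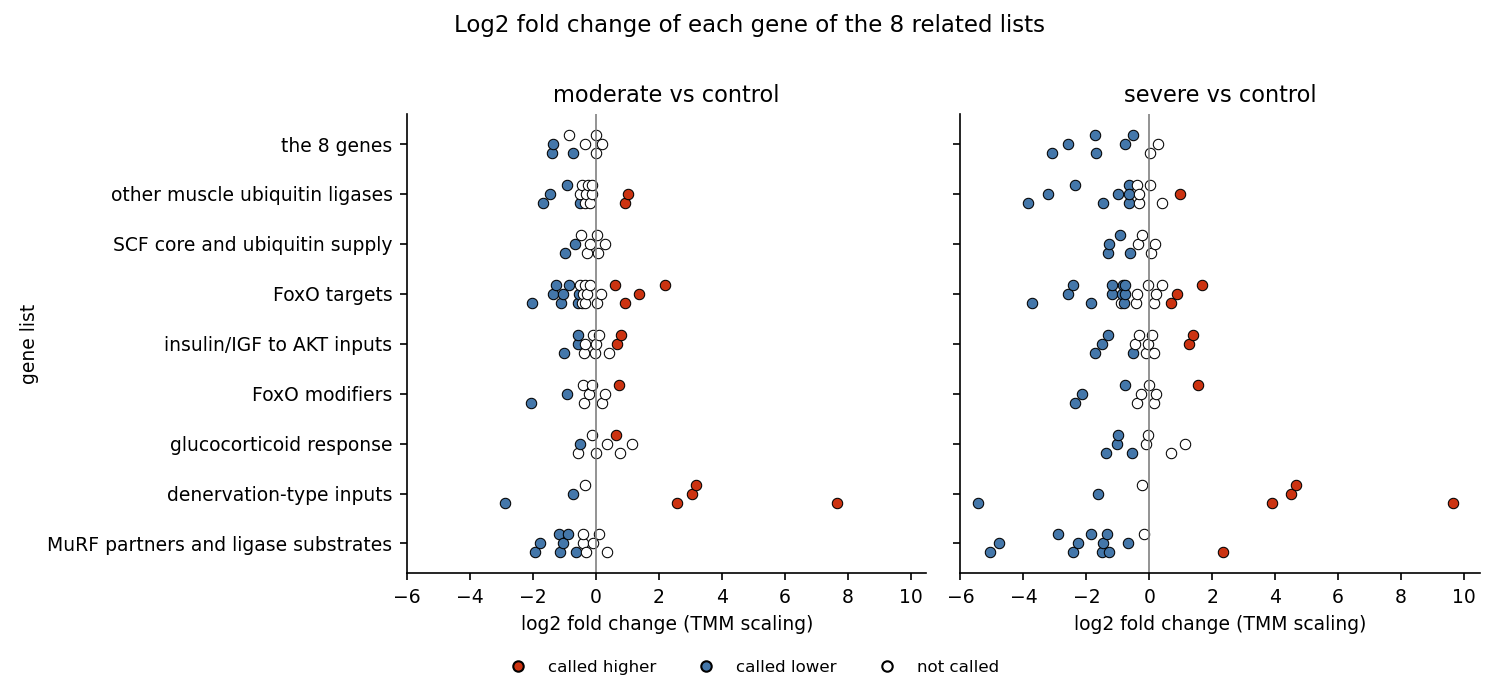
Log2 fold change of each of the 8 members and of each gene of 8 related lists in the moderate and severe mice against control (edgeR with TMM, n = 3 mice per group), 1 point per gene, colored by its call, the point farthest right being Chrng, whose control counts were 0 to 1. In the severe mice most called genes lie below 0 in every list but the denervation-type one. With library size only, 4 members are called higher and 2 lower in the severe mice, against 75.4% and 6.42% of all genes. The called genes of the other ligases, FoxO targets, insulin and IGF pathway, FoxO modifiers, SCF core and glucocorticoid response are then also mostly higher.

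The genes whose log2 CPM was most like a member's over the 12 mice were sought among 12317 genes with a mean of at least 50 counts, as a description only, since the 12 points share their 4 groups and their library composition. For Trim54 they were Rtn2, Smarcd3 and Asb14, with Pearson r of 0.999 or more. For Trim63 they were Ppp1r3c (0.991), Klhdc2 (0.991) and Spast (0.990), and for Fbxo32 Lysmd4 (0.985), Cdh13 (0.984) and Osbpl2 (0.981). For Trim55 they were Phactr2 (0.989), Nexn (0.986) and 2610021A01Rik (0.982), and for Foxo4 Rpap3 (0.994), Rock2 (0.994) and Plekhh3 (0.993). For the members that changed less the best r was lower: Tyw5 (0.927), Mettl21d (0.909) and Slc33a1 (0.903) for Fbxo30, Ankrd12 (0.914), Arrdc2 (0.890) and Slc25a25 (0.873) for Foxo1, and Wasl (0.867), AC157896.1 (0.842) and Ap2a1 (0.820) for Foxo3. Among the members, r was 0.953 for Fbxo32 with Trim54, 0.945 for Fbxo32 with Trim63, 0.938 for Trim63 with Trim54 and 0.974 for Trim55 with Foxo4, the 4 highest of 28 pairs. The lowest were -0.729 for Trim54 with Fbxo30, -0.699 for Fbxo30 with Foxo4 and -0.670 for Trim55 with Fbxo30.

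The ratio of a gene's count to its TPM follows the length of the transcripts RSEM assigned to it, up to a factor shared by all genes of a library. Against the median gene, Fbxo32, Trim63, Trim54 and Trim55 shared 1 shift, at 0.928, 0.928, 0.928 and 0.927 of the control value in the moderate mice and 0.888, 0.891, 0.885 and 0.889 in the severe mice. Fbxo30 and Foxo4 lay below the control mice under both references: Fbxo30 at 0.847 and 0.814 against the median gene and at 0.913 and 0.920 against Trim54 in the moderate and severe mice, and Foxo4 at 0.905 and 0.847 and at 0.975 and 0.957. Each of these values had all 3 mice of the model below all 3 controls (exact permutation test, two-sided p = 0.10, n = 3 per group, the smallest possible). How many of all genes lie apart on this ratio is not given, so the separation is not a result about these members. Foxo1 turned with the reference, at 0.967 and 0.914 against the median gene and 1.04 and 1.03 against Trim54, as did Foxo3 in the severe mice, at 0.931 and 1.05. Fbxo32, Trim63 and Trim55 in the severe mice went from 0.888, 0.891 and 0.889 to 1.00, 1.01 and 1.00.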

How the data were processed

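Gastrocnemius muscle RNA of 12 mice was measured, 3 in each of 4 groups taken from the sample labels. The authors aligned reads to mm10 with RSEM 1.2.4 (calling Bowtie) and TopHat2 2.0.8b, and deposited RSEM expected counts and TPM per gene. Expected counts were rounded and fitted as 1 model of 4 groups with edgeR 4.0.16 (R 4.3.3): filterByExpr, TMM, robust quasi-likelihood tests, Benjamini-Hochberg adjustment over 16679 genes. Calls needed an adjusted p under 0.05 and a log2 fold change of at least 0.5. Single ratios had two-sided exact permutation tests, which with 3 against 3 cannot go below p = 0.10. Steps were tested on simulated data. Alternatives were DESeq2 1.42.0 (size factors, Wald test), library size only, limma 3.58.1 (trend, robust) on log2(TPM + 1) or log2(TPM + 0.1), other filters and thresholds, fits of only the compared groups, and leaving out each mouse. The ratios to fast-fiber genes were also taken to Ckm alone. Library totals were 23796902 to 29136403 counts. Positions are from GENCODE M21 (GRCm38) and promoters from RefSeq. The members and lists were chosen with earlier results of these data known. Named genes were all 8 members, the 3 higher and 3 lower called genes of each list with the largest change in severe against control mice, any list gene called in opposite directions in the 2 models, and the 3 genes most correlated with each member. An item that this rule names is not reported here. The mild bi-transgenic animals of the study are not in these files. Figures were drawn with matplotlib 3.10.9 (Python 3.11.15).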

Additional observations from a re-analysis of the deposited data

Results flagged for a closer look

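Moderate and severe mice were compared with the same controls, and the direct edgeR test of severe against moderate mice found a different log2 fold change for 4 members. The difference was -1.75 for Fbxo32, -1.32 for Trim63, -1.75 for Trim54 and -0.53 for Foxo1, each lower in all 3 severe mice than in all 3 moderate mice with TMM. With library size only the first 3 kept their direction and Foxo1 turned to 0.18. The Foxo1 call was kept under 4 of 17 alternatives, lost under 10 and turned under 3, and it was lost on leaving out any of the 6 mice compared. The calls of the other 3 were kept under all 17. The dose of tamoxifen and the number of injections differ together between these groups and cannot be told apart.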

How the results depend on the processing

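Of 544 alternative values of the members' log2 fold changes, 451 kept their direction and their side of the threshold, 27 lost a call, 23 gained 1 and 43 changed sign. With library size only, limma on log2(TPM + 1) and limma on log2(TPM + 0.1), which leave in the shift of the median gene, Trim55 was at 0.52, 0.40 and 0.41 in severe against control and at 0.64, 0.62 and 0.65 in severe against moderate, Foxo1 at 0.79, 0.51 and 0.66 and at 0.18, 0.17 and 0.22 in the same comparisons, Foxo4 at 0.37, 0.40 and 0.42 in severe against moderate, and Trim63 at 0.25, 0.11 and 0.11 in moderate against control. Under these 3 settings the members called higher went from 0 to 3, 1 and 1 in moderate against control, to 4, 3 and 3 in severe against control (1 with no fold threshold) and to 3, 3 and 3 in severe against moderate, and those called lower in severe against control went from 6 to 2, 3 and 3. Of all genes, library size only called 52.5%, 75.4% and 57.8% higher in these comparisons and 6.42% lower in severe against control. For limma on log2(TPM + 1) the shares were 31.5%, 64.1% and 48.2% higher and 5.92% lower. No share of all genes is given for log2(TPM + 0.1). The other sign changes were of values near 0, apart from Fbxo32 in FLExD/+ against control, at 0.26 (SE 0.34) with all mice. With DESeq2 size factors and the DESeq2 Wald test, Foxo1 in moderate against control was at -0.0124 and -0.0123 and Foxo3 at -0.0136 and -0.0135. Leaving out single mice gave ranges that cross 0 in FLExD/+ against control for Fbxo32 (-0.0724 to 0.69), Trim63 (-0.14 to 0.0301), Trim54 (-0.0740 to 0.0225), Fbxo30 (-0.0748 to 0.14) and Foxo1 (-0.20 to 0.22), in moderate against control for Foxo1 (-0.19 to 0.23) and Foxo3 (-0.14 to 0.0682), in severe against control for Foxo3 (-0.0552 to 0.0824), and in severe against moderate for Trim55 (-0.13 to 0.0193) and Foxo3 (-0.0650 to 0.15). The cause was not tested. Trim54 as the reference for transcript length was chosen after seeing the data, since against the median gene Fbxo32, Trim63, Trim54 and Trim55 shared 1 shift. With 3 mice per group, a change that was not called is not shown to be absent. No paired analysis was possible because each mouse belongs to 1 group. RNA levels do not show FoxO phosphorylation or ligase activity, and whole muscle mixes cell types.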
